A study of Mus musculus with 6 samples.

Results

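DNA damage response and repair genes were measured in mouse embryonic stem (ES) cells that lack or keep Dicer, the enzyme that makes mature microRNAs out of their hairpin precursors. The set holds 52 genes chosen by symbol. For 51 of them the array carried a probe set (the short probes that together read 1 transcript) whose annotation named that gene alone, and all 51 were bright enough to be tested among 12927 genes in all. Xrcc2 had no such probe set and was not analysed here. Each gene was read by its brightest probe set over the 6 arrays. The tested cells were the undifferentiated Dicer -/- line 27H (27H10 in the series title; 3 arrays, called null cells here), and they were set against the undifferentiated Dicer +/- line D4 (3 arrays, heterozygous cells), which keeps 1 intact Dicer copy. Left unsaid by the labels are which part of Dicer was deleted, whether the lines descend from 1 parent, or whether cells for the 3 arrays of a line were grown separately. P-values therefore cover no more than the spread among these arrays, and that spread may be technical. Because each genotype is 1 line, effects of genotype and of line cannot be told apart.

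Cells meet DNA damage with sensor kinases, which signal to the cell cycle, and with repair pathways that each take on 1 kind of lesion. Breaks through both strands are joined end to end or copied from a sister chromatid by homologous recombination, damaged bases and mispaired bases are cut out and resynthesised, and crosslinks between strands are unhooked by the Fanconi anaemia pathway. ES cells divide fast, with a short G1 phase, and are known for their use of homologous recombination.

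All arrays had a trimmed mean intensity of 500 arbitrary units. Dicer1 transcript itself was no lower in null cells: its brighter probe set read 1197 ± 62.2 in null cells and 1098 ± 39.2 in heterozygous cells (SD, n = 3; limma adjusted p 0.264 over all probe sets). Which part of the transcript it reads is unknown. The 7 ES markers were bright in both lines, with sums of 89396 to 94252 in null cells and 95557 to 100386 in heterozygous cells, and 0 of them differed by 2-fold. Of 11 fibroblast markers that would show feeder cells, 8 were tested, of which 1 rose and 3 fell. Those that fell were Col1a1, Acta2 and Thy1. Acta2 averaged 542 in null cells and 1116 in heterozygous cells (limma adjusted p 0.000108). Thy1 averaged 119 and 171 (adjusted p 0.0305). The 11 markers summed to 8553 to 8701 in null cells and 8179 to 8685 in heterozygous cells, most of it Fn1. Col1a1 lay between 4.44 and 7.99 in null cells and between 38.3 and 90.9 in heterozygous cells. On the same scale Col3a1 was at 22.6 to 29.1 in null cells and 41.5 to 56.2 in heterozygous cells, and Postn was at no more than 3.4 in null cells and 4.18 in heterozygous cells. Dcn went the other way, at 203 to 316 in null cells and 16 to 58.4 in heterozygous cells (limma adjusted p 9.3e-05), and Lum lay between 17.6 and 47.5 in null cells and between 2.61 and 31.5 in heterozygous cells. The 7 primitive endoderm markers summed to 382 to 424 in null cells and 932 to 1431 in heterozygous cells. Most of that gap was in Dab2, which averaged 155 in null cells and 683 in heterozygous cells. Gata6 also fell, from 108 in heterozygous cells to 38.3 in null cells (limma adjusted p 0.00824). The other 5 did not pass the test, but all 7 were lower in null cells, with log2 differences of -2.13 to -0.09. Of the other lineage markers, the epiblast genes Fgf5 and Pou3f1 were at -2.74 and -1.87 on the log2 scale, null minus heterozygous, with Otx2 at 0.32, the neural genes Pax6 and Sox1 at 1.93 and 0.90 with Nes at -0.31, the mesoderm genes Mixl1 and Eomes at -0.98 and -0.58, and the trophectoderm genes Krt18 and Cdx2 at -1.47 and -3.37. Cdx2 was dim, at 29.5, 2.83 and 3.21 in null cells and 49.8, 51.2 and 117 in heterozygous cells. Its null values lie under the intensity of 32 used to filter low values, so its difference (SE 1.03) is imprecise. The part of other cell types in the results below was not tested. In such bulk samples fewer cells of a type and less RNA per cell cannot be told apart.

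The repair genes that changed went both ways. Of the 51 tested, 16 were higher and 10 lower in null cells at a limma adjusted p under 0.05, and 25 did not pass. With arrays centred on a common median, 20 were higher and 6 lower. "Rose" and "fell" are used below only of genes past that threshold. The passing share, 51%, lay near the 48.8% of all tested genes that passed; over all tested genes 24.5% were higher and 24.3% lower. The median log2 difference, null minus heterozygous, was 0.02 for the repair genes and -0.01 for all tested genes. The 2-fold threshold, added to the adjusted p, was met by 0 repair genes in the upward direction, against 7.23% of all tested genes, and by 2 in the downward direction, against 6.2%. Both directions together gave 3.92% of the repair genes and 13.4% of all tested genes. The median size of the difference, whatever its sign, was 0.33 for the repair genes and 0.42 for all tested genes. Null and heterozygous arrays stood apart, with no overlap, for 31 of the 51 repair genes, or 60.8%, against 57.2% of all tested genes. Counts by role below rest on 2 to 10 tested genes each and describe no more than those genes.

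**Figure D1:**
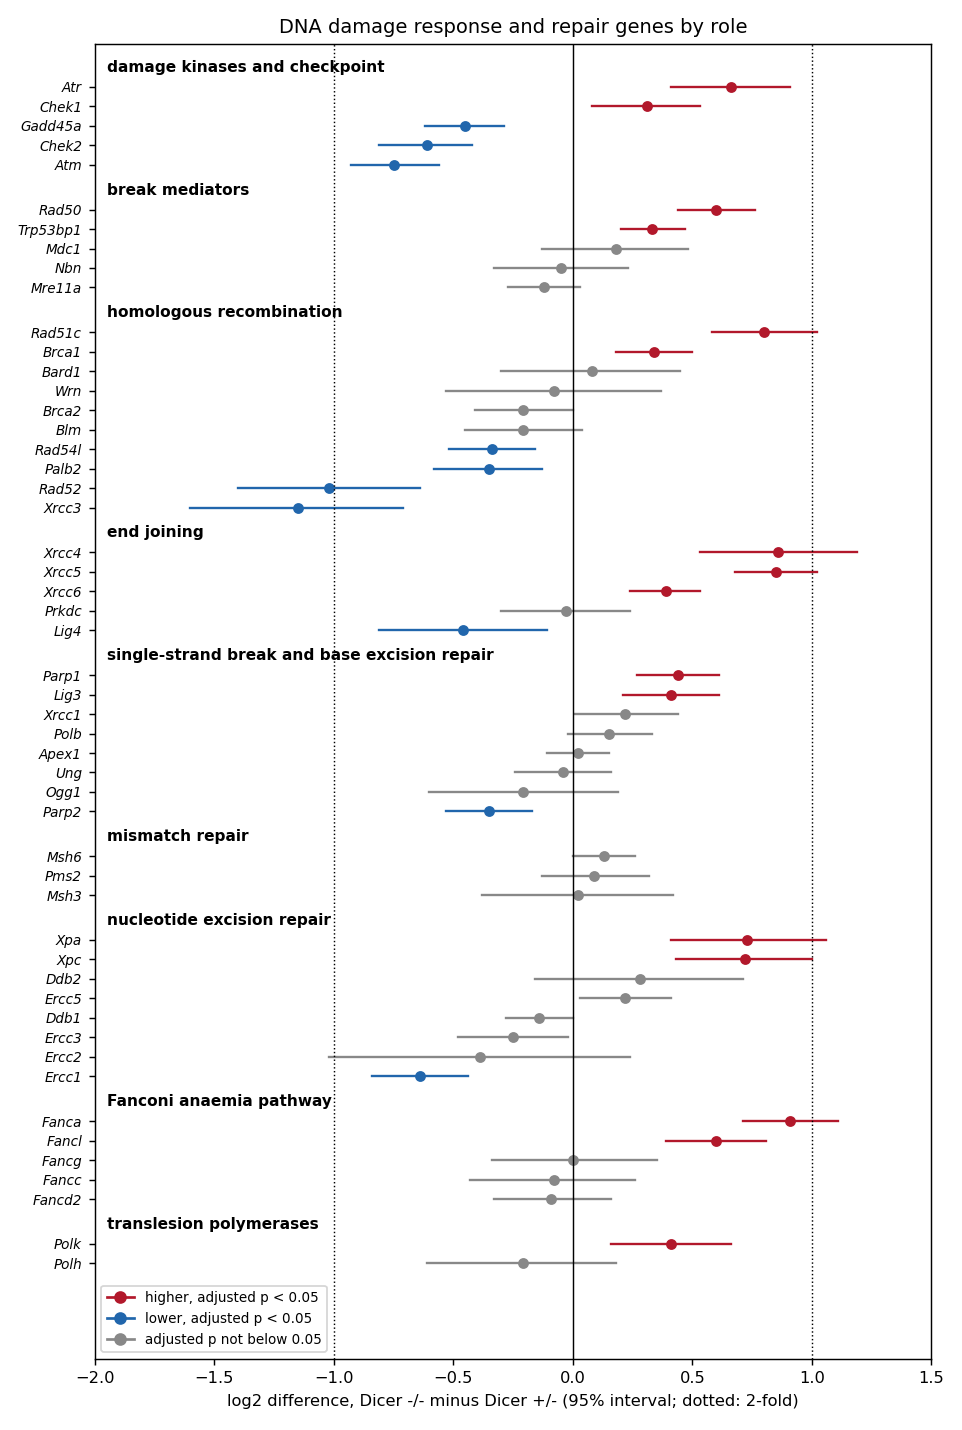
Log2 difference in intensity, null minus heterozygous (x axis), of the 51 tested DNA damage response and repair genes, grouped by role; points are estimates from 3 arrays a line, bars their 95% intervals and dotted lines a 2-fold change. The differences run between -1.15 for Xrcc3 and 0.91 for Fanca, and most roles hold genes on both sides of 0.

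The promoters of 4 genes are shown because these genes had the lowest (Xrcc3 and Rad52) and the highest (Fanca and Xrcc4) differences. Each is the stretch of 250 bases before the gene's start in the RefSeq promoter table (GRCm38.p6), printed 5′ to 3′ in the direction of transcription. Capitals mark matches, on either strand, to a CCAAT box (CCAAT) or a GC box (GGGCGG), both common promoter elements.
Xrcc3 (chr12:111813880-111814129, minus strand): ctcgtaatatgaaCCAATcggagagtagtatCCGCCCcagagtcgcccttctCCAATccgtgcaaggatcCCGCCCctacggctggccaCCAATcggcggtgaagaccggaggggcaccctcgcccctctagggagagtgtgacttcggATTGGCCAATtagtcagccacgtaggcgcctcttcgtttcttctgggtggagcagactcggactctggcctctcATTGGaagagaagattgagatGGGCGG
Rad52 (chr6:119902448-119902697, plus strand): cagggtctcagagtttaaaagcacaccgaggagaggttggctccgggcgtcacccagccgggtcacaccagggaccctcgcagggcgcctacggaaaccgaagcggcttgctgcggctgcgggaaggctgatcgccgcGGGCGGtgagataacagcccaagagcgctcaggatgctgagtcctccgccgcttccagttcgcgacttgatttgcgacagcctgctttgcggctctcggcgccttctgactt
Fanca (chr8:123318577-123318826, minus strand): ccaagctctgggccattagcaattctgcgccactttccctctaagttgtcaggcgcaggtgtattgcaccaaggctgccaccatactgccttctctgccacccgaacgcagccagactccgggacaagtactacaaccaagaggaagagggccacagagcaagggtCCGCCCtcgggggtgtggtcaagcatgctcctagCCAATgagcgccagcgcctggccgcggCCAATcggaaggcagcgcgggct
Xrcc4 (chr13:90089609-90089858, minus strand): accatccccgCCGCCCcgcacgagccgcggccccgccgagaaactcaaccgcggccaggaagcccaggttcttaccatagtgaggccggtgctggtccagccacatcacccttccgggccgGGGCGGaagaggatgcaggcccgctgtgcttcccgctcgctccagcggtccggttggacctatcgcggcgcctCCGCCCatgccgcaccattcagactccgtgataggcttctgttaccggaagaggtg
The Xrcc3 stretch held 6 CCAAT boxes and 3 GC boxes, the Rad52 stretch 0 and 1, the Fanca stretch 2 and 1, and the Xrcc4 stretch 0 and 3. The table has such stretches for 42 of the 52 genes, 46 stretches in all. GC boxes were present in 67.4% of these 46 and in 32.7% of all 32851 stretches, and CCAAT boxes in 45.7% of the 46 and in 33.8% of all. For genes that rose, 9 of 16 stretches held a GC box and 4 a CCAAT box. For genes that fell, 10 of 12 held a GC box and 6 a CCAAT box. The 16 stretches come from 14 genes and the 12 from 10. Rad54l has 2 stretches that overlap almost wholly, and both, counted here, hold both boxes. The E2F motif was searched as TTTGGCGC and as TTTCGCGC, and the cell cycle element CHR as TTTGAA, on both strands. An E2F motif was found in 1 of the 46 stretches, that of Msh3, where the 2 forms overlap. That is 2.17%, against 0.654% of all stretches. CHR was found in those of Bard1 and Ercc5, or 4.35%, against 16% of all. Such matches describe letters in these windows and say nothing of binding.

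The damage kinases and the genes next to them, 5 in all, passed the adjusted p in opposite directions, where 48.8% of all tested genes passed. Atm, the kinase activated by broken ends, read 613, 637 and 639 in null cells and 1031, 1027 and 1118 in heterozygous cells. It fell by 0.75 on the log2 scale, to a level 1.68-fold below heterozygous cells (SE 0.08, limma adjusted p 2.33e-05), and its dimmer probe set was at -1.27. Atr, the kinase activated by single-stranded DNA at stalled forks, read 1088, 833 and 1117 in null cells and 647, 613 and 647 in heterozygous cells, a rise of 0.66 (SE 0.11, limma adjusted p 0.000603). The kinase that each activates differed in the same direction as its activator. Chek2, which relays the Atm signal, read 774, 781 and 909 in null cells and 1234, 1259 and 1269 in heterozygous cells, a log2 difference of -0.61 (limma adjusted p 0.000145). Chek1, which relays the Atr signal, was at 2257, 2248 and 2758 in null cells and 1860, 1799 and 2201 in heterozygous cells. Its arrays nearly touch, and its difference was 0.31 (adjusted p 0.0262). Chek1 lost the threshold without heterozygous replicate 1 (adjusted p 0.0862), heterozygous replicate 2 (0.108) or null replicate 3 (0.0842). It also lost it in limma without an intensity trend (0.106) and with means over probe sets (0.159). The probe set used may share sequence with another transcript, and without such probe sets Chek1 was at 0.27 (adjusted p 0.179). Gadd45a, a stress-induced gene of growth arrest and repair, averaged 1152 ± 44.9 in null cells and 1576 ± 55.2 in heterozygous cells (SD, n = 3), and fell by 0.45. Of the 2 Atr probe sets past the filter on low values, the dim one, at 54.3 in null cells and 70.9 in heterozygous cells, was at -0.64 with an adjusted p of 0.379, and their mean was at 0.01.

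**Figure D2:**
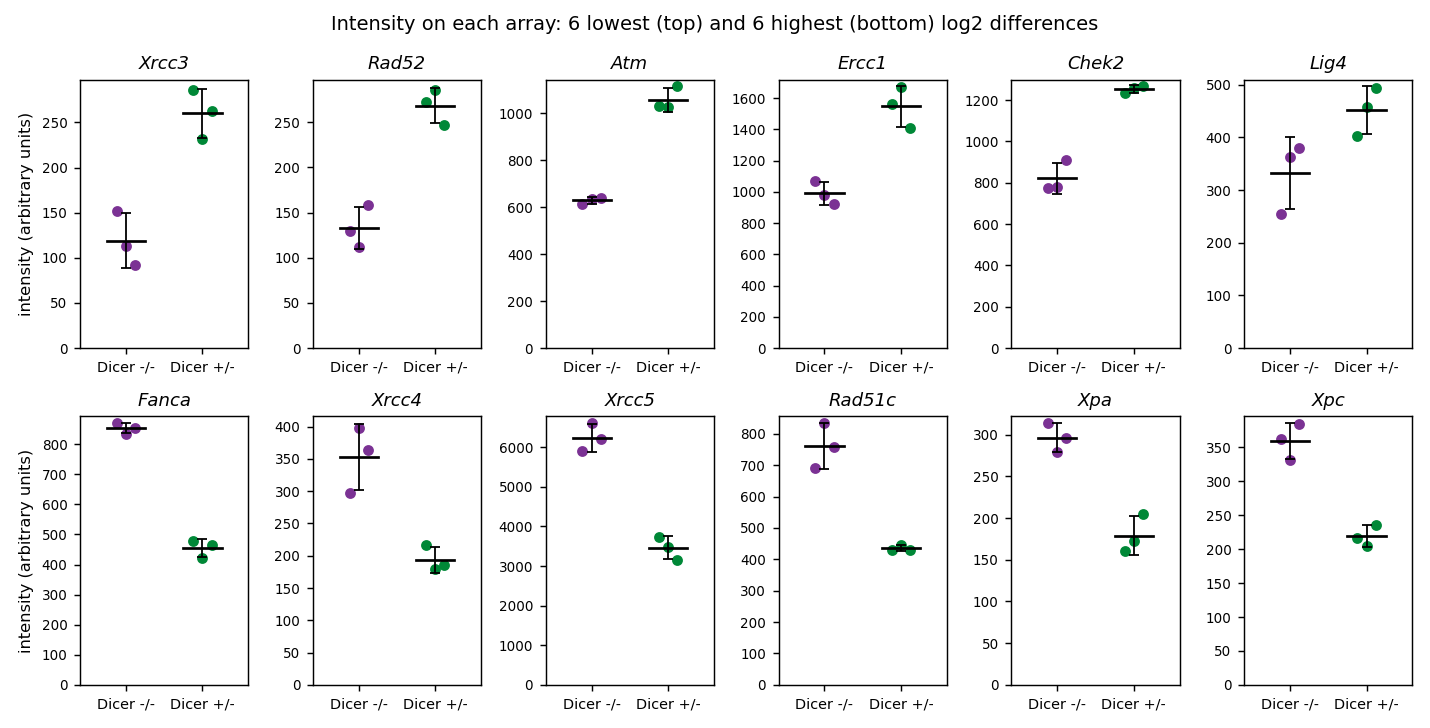
Intensity in arbitrary units (y axes, from 0) on each array of the 6 repair genes with the lowest log2 differences (top) and the 6 with the highest (bottom); purple points are null and green points heterozygous arrays, with the mean and SD of 3. In all 12 genes the arrays of the lines do not overlap. The genes were picked by their difference on these same arrays, and 57.2% of all tested genes show no overlap either. Fanca, at 835 to 869 in null cells against 422 to 479 in heterozygous cells, has the largest log2 difference of the bottom row. Xrcc5 has the highest intensities of that row.

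Among 5 first responders at broken ends, Rad50 and Trp53bp1 rose, or 40%, against 24.5% of all tested genes. In this role 0 genes fell, against 24.3% of all. Rad50, the ATPase that bridges ends in the MRN complex, read 1964, 1962 and 2042 in null cells and 1357, 1336 and 1241 in heterozygous cells, a log2 difference of 0.60 (SE 0.07, limma adjusted p 3.97e-05). The other MRN subunits did not pass: the nuclease Mre11a was at -0.12 (95% interval -0.27 to 0.03) and the Atm recruiter Nbn at -0.05 (-0.33 to 0.23). Trp53bp1, which shields ends from resection and favours end joining, averaged 4662 ± 67.4 in null cells and 3705 ± 164 in heterozygous cells (SD, n = 3), a difference of 0.33. Mdc1, the scaffold that binds damaged chromatin, was at 0.18 (-0.13 to 0.48).

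Homologous recombination held both genes with a 2-fold change, Xrcc3 and Rad52, and both were lower in null cells. They are 20% of the 10 recombination genes tested, against 6.2% of all tested genes in that direction and 13.4% in either. At the adjusted p alone, 2 of the 10 rose and 4 fell, or 20% and 40%, against 24.5% and 24.3% of all tested genes. Xrcc3, which acts on recombination intermediates, read 152, 113 and 92.4 in null cells and 286, 232 and 263 in heterozygous cells, 2.22-fold lower in null cells (log2 difference -1.15, SE 0.20, limma adjusted p 0.000634). Rad52, a DNA-annealing protein, read 130, 112 and 158 in null cells and 272, 286 and 247 in heterozygous cells, 2.03-fold lower (-1.02, SE 0.17, adjusted p 0.00048). The arrays of the lines do not overlap in either gene, as in 57.2% of all tested genes. Both lie close to the threshold of size, and the 95% intervals, -1.60 to -0.71 for Xrcc3 and -1.40 to -0.64 for Rad52, reach below a 2-fold change. Xrcc3 was at -0.98 without null replicate 3, and Rad52 was at -0.90 without null replicate 2 and at -0.97 without heterozygous replicate 2. A further probe set of Xrcc3, which may share sequence with another transcript, was at -1.05 with 41.7, 75.2 and 77.2 in null cells and 104, 128 and 161 in heterozygous cells (adjusted p 0.0194 over all probe sets). The brightest probe set of Rad52 may share sequence too. Its further probe set read 16.9, 70.8 and 84.6 in null cells and 184, 189 and 188 in heterozygous cells. The lowest null array lay under the filter's intensity of 32, so its log2 difference of -2.0 (SE 0.51, adjusted p 0.00932) is imprecise.

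Rad51c, which forms a complex with Xrcc3, rose. It read 691, 835 and 758 in null cells and 430, 446 and 430 in heterozygous cells, 1.74-fold higher in null cells (log2 difference 0.80, SE 0.10, limma adjusted p 5.63e-05). Its other probe set read 669, 641 and 613 in null cells and 312, 284 and 302 in heterozygous cells, a difference of 1.10. Brca1, the ubiquitin ligase that promotes resection, averaged 3246 ± 227 in null cells and 2564 ± 66.9 in heterozygous cells (SD, n = 3), a rise of 0.34. Its obligate partner Bard1 was at 0.08 (95% interval -0.30 to 0.45). Palb2, which links Brca1 to Brca2, fell by 0.35 and Rad54l, a motor protein of strand exchange, fell by 0.34. Brca2, a mediator of strand exchange, was at -0.21 with an adjusted p of 0.0847, and the helicases Blm (-0.21) and Wrn (-0.08) did not pass either. Palb2 lost the threshold without heterozygous replicate 2 (adjusted p 0.0625) or null replicate 2 (0.0506).

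Of 5 genes of end joining, 3 rose and 1 fell, or 60% and 20%, against 24.5% and 24.3% of all tested genes. Xrcc4, the scaffold of the ligation step, read 297, 398 and 364 in null cells and 217, 180 and 185 in heterozygous cells, 1.81-fold higher in null cells (log2 difference 0.86, SE 0.15, limma adjusted p 0.000656). Its other probe set, which may share sequence with another transcript, read 272, 306 and 318 in null cells and 64.4, 118 and 82.7 in heterozygous cells, a difference of 1.80. Xrcc5, the larger subunit of the Ku ring that caps ends, read 5900, 6608 and 6201 in null cells and 3746, 3486 and 3161 in heterozygous cells, 1.80-fold higher (0.85, adjusted p 4.69e-06). Xrcc6, the smaller Ku subunit, averaged 2922 ± 14.2 in null cells and 2236 ± 118 in heterozygous cells (SD, n = 3), 1.31-fold higher. All null arrays were above all heterozygous arrays in these 3 genes, and 57.2% of all tested genes show no overlap in one direction or the other. Lig4, the ligase that Xrcc4 holds, was at 255, 363 and 380 in null cells and 403, 458 and 494 in heterozygous cells, a difference of -0.46 (adjusted p 0.032). Without null replicate 1 the Lig4 difference was -0.28 (adjusted p 0.113), and it also lost the threshold without heterozygous replicate 2 (0.0848) or 3 (0.103). Prkdc, the kinase recruited by Ku, was at -0.03 (95% interval -0.30 to 0.24).

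Log2 ratios between genes on the same array set some of these differences side by side. They follow from the values of the single genes. The pairs were picked by function after those values had been seen, so no test is given. Xrcc5, Parp1 and Bard1 lie on chromosome 1 and Rad50, Rad51c, Brca1 and Lig3 on chromosome 11, whose tested genes had raised medians (given below). The ratios were not centred by chromosome. Among genes whose proteins bind each other, the ratio of Rad51c to Xrcc3 was 3.88-fold higher in null cells, that of Xrcc4 to Lig4 2.49-fold higher, and that of Fanca to Fancg 1.87-fold higher. Within MRN, Rad50 over Mre11a differed by 0.72 on the log2 scale and Rad50 over Nbn by 0.65. The Ku subunits were both higher, and their ratio, Xrcc5 over Xrcc6, differed by 0.46. With arrays centred within each chromosome they were nearly equal, Xrcc5 at 0.51 and Xrcc6 at 0.50. The differences were smaller for Brca1 over Bard1 (0.26), Brca2 over Palb2 (0.15), Xrcc1 over Lig3 (-0.18) and Ercc2 over Ercc3 (-0.15), whose ratios overlapped between the lines, while Ddb1 over Ddb2 differed by -0.41. Of the genes that act in parallel, the ratio of Atm to Atr was 2.65-fold lower in null cells, that of Chek2 to Chek1 1.90-fold lower, and that of Parp1 to Parp2 1.73-fold higher.

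Single-strand break and base excision repair gave small changes, with 2 of 8 genes higher and 1 lower. That is 25% and 12.5%, against 24.5% and 24.3% of all tested genes. Parp1, the abundant sensor of strand breaks, read 12676, 12529 and 10841 in null cells and 9020, 9284 and 8217 in heterozygous cells, a log2 difference of 0.44 (SE 0.08, limma adjusted p 0.000551). Parp2, the second sensor, averaged 2412 ± 176 in null cells and 3075 ± 272 in heterozygous cells (SD, n = 3), and fell by 0.35. Lig3, the ligase that seals these breaks, rose by 0.41, while its scaffold Xrcc1 was at 0.22 with an adjusted p of 0.0791. Among the enzymes of base excision, Apex1, which cuts the strand at sites that have lost their base, read 12229, 12586 and 11544 in null cells and 12316, 11779 and 11800 in heterozygous cells. The lines overlap, and the interval of the log2 difference, -0.11 to 0.15, was narrow. The polymerase Polb was at 0.15 (-0.02 to 0.33), Ung, which removes uracil, at -0.04 (-0.24 to 0.16), and Ogg1, which removes oxidised guanine, at -0.21 (-0.60 to 0.19). The other Ogg1 probe set was at 0.37, so the 2 disagreed in sign.

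The 3 mismatch repair genes did not pass the test. Msh6, which forms the main mismatch sensor of mammalian cells with its partner, averaged 10800 ± 302 in null cells and 9863 ± 386 in heterozygous cells (SD, n = 3), which is 0.13 in log2 (limma adjusted p 0.0848). Msh3, which recognises larger loops, was at 0.02 (95% interval -0.38 to 0.42) and Pms2, the endonuclease subunit of the next step, at 0.09 (-0.13 to 0.32).

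In nucleotide excision repair, which removes bulky lesions such as those left by ultraviolet light, Xpa and Xpc rose and Ercc1 fell. That is 25% and 12.5% of the 8 genes tested, against 24.5% and 24.3% of all tested genes. Xpc, which recognises distorted DNA, read 363, 332 and 385 in null cells and 217, 204 and 236 in heterozygous cells, 1.64-fold higher in null cells (log2 difference 0.72, SE 0.13, limma adjusted p 0.00075). Xpa, which verifies damage and places the nucleases, read 314, 279 and 296 in null cells and 160, 172 and 205 in heterozygous cells, 1.66-fold higher (0.73, adjusted p 0.0016). Ercc1, part of the nuclease that cuts on the 5′ side, read 1070, 979 and 925 in null cells and 1564, 1670 and 1408 in heterozygous cells, a log2 difference of -0.64 (adjusted p 0.000138), and its second bright probe set was at -0.62. The lines did not overlap in any of these 3 genes, as in 57.2% of all tested genes. The remaining genes did not pass: the nuclease Ercc5 was at 0.22 (adjusted p 0.0553), the TFIIH helicases Ercc3 and Ercc2 at -0.25 and -0.39, and the ultraviolet damage sensors Ddb1 and Ddb2 at -0.14 and 0.28. Ercc2 was dim and its interval, -1.02 to 0.24, was wide.

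Fanca, a scaffold of the Fanconi core complex, had the highest difference of the set. It read 869, 835 and 855 in null cells and 479, 422 and 464 in heterozygous cells, 1.88-fold higher in null cells (log2 difference 0.91, SE 0.09, limma adjusted p 1.17e-05), and its second probe set was at 0.85. Both probe sets may share sequence with another transcript. Fancl, the ubiquitin ligase of the complex, averaged 2743 ± 163 in null cells and 1819 ± 238 in heterozygous cells (SD, n = 3), a rise of 0.60. Of the 5 Fanconi genes tested, 40% rose and 0 fell, against 24.5% and 24.3% of all tested genes. The core members Fancc and Fancg were at -0.08 and 0.00, and Fancd2, the protein that Fancl marks with ubiquitin, was at -0.09 (95% interval -0.33 to 0.16). Of the polymerases that copy past lesions, Polk rose by 0.41 and Polh was at -0.21 with an adjusted p of 0.354. Polk was at 0.32 without heterozygous replicate 2, with an adjusted p of 0.0519.

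The genes that did not pass were mostly bounded well inside a 2-fold change. Of these 25, 20 had a 95% interval inside -0.5 to 0.5 on the log2 scale, and 24 had one inside -1 to 1.

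Other probe sets of the same genes offered a second reading of the same arrays. On genes that passed, 21 further probe sets, from 14 genes, had a mean of at least 100 in 1 of the lines. All differed in the same direction as the brightest one, and 14 of them passed the adjusted p over all probe sets. Of all probe sets 40.1% passed, but the 21 were taken from genes already past the threshold on these arrays. The 2 shares are therefore not alike. Of 5 dimmer ones, 2 had the same direction, and those of opposite sign belonged to Atr, Chek1 and Parp1. The limit of 100 was set after the values were seen. For 11 of the 26 genes that passed there was no further probe set past the filter.

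**Figure D3:**
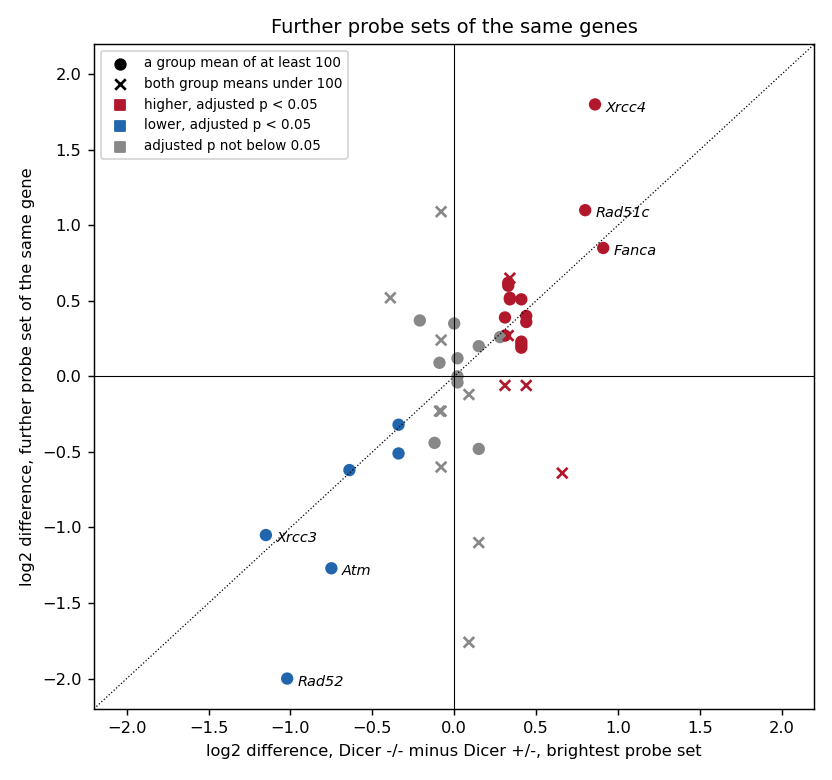
Log2 difference, null minus heterozygous, of each further probe set past the filter (y axis) against that of the brightest probe set of the same gene (x axis); circles have a group mean of at least 100, crosses do not, and the dotted line marks equal values. All 21 circles of genes that passed lie on the same side of 0 on both axes, with Xrcc4 at 1.80 and Rad52 at -2.0 farthest from 0.

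Position in the genome moved with part of these results. The tested genes of chromosomes 1 and 11 had median log2 differences of 0.31 and 0.29, while the medians of the other autosomes lay between -0.11 and -0.01. On chromosome 1, 46% of the tested genes were higher at the adjusted p, and on chromosome 11, 40.9%. All 5 repair genes on chromosome 11 rose, namely Rad51c (0.80), Rad50 (0.60), Fancl (0.60), Lig3 (0.41) and Brca1 (0.34). Of the 4 on chromosome 1, Xrcc5 and Parp1 rose, and Ercc5 and Bard1 were at 0.22 and 0.08. On the other chromosomes 9 of 42 repair genes, or 21.4%, were higher and 10, or 23.8%, lower, against 21.4% and 26.7% of all 11109 genes tested there. When arrays were centred within each chromosome, a setting added after the data were seen, Xrcc5 was at 0.51, Rad51c also at 0.51, and Rad50 and Fancl at 0.31 each, all still past the threshold. Brca1 was then at 0.04 (limma adjusted p 0.652), Parp1 at 0.10 (0.318) and Lig3 at 0.12 (0.328), and Palb2, on chromosome 7, at -0.24 (0.0746). Xrcc1 (0.34, adjusted p 0.0128) and Msh6 (0.22, 0.0124) passed in that setting. Fanca, on chromosome 8, was at 0.92 and Xrcc4, on chromosome 13, at 0.90. The part of chromosome dosage in these results was not tested.

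**Figure D4:**
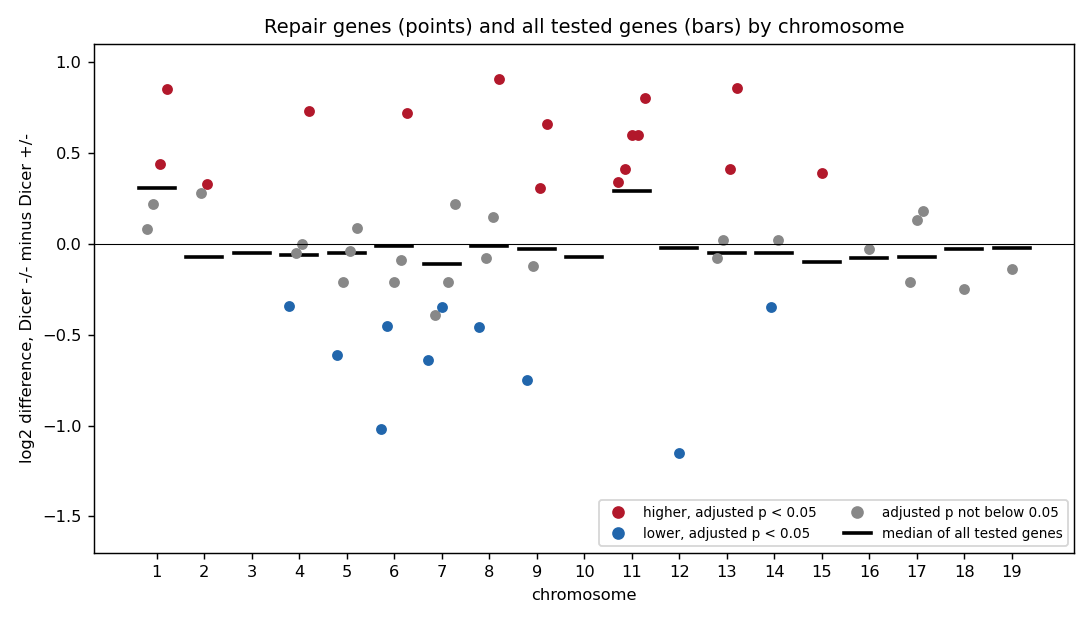
Log2 difference, null minus heterozygous (y axis), of each tested repair gene (points) by autosome (x axis), with the median of all tested genes of that chromosome as a black bar. The bars of chromosomes 1 and 11 lie at 0.31 and 0.29, those of the other autosomes between -0.11 and -0.01, and all 5 points on chromosome 11 are above their bar.

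Scaling bears on the balance of directions. When every array was set to a common median over its probe sets, the median over tested genes was 0.14, a shift of 0.15 that applied alike to each gene. The array medians, 44.9 to 52.7, lie close to the filter's intensity of 32, which 56.9% to 60.3% of probe sets reached. Dim probe sets therefore set this scale. On that scale Fanca (1.06), Xrcc4 (1.01) and Xrcc5 (1.0) reached a 2-fold change, Xrcc3 (-1.0 after rounding) and Rad52 (-0.87) stayed just under it, and Palb2, Rad54l, Parp2 and Lig4 no longer passed the adjusted p. Xrcc1 (0.38, limma adjusted p 0.0109), Polb (0.31, 0.0175), Msh6 (0.29, 0.00288) and Ercc5 (0.37, 0.0068) then passed as higher, which made 20 higher and 6 lower. Atm, Chek2, Ercc1, Gadd45a, Xrcc3 and Rad52 still passed as lower on it.

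Other genes of these pathways also went both ways. Of 86 further repair genes, 74 were tested, with a median log2 difference of -0.07. Of these 74, 15 passed as higher and 24 as lower, or 20.3% and 32.4%, against 24.5% and 24.3% of all tested genes. A 2-fold threshold was met by 1 that rose and 3 that fell, 5.41% against 13.4% of all tested genes. Mbd4, a glycosylase for thymine mispaired with guanine, read 152, 172 and 120 in null cells and 420, 470 and 346 in heterozygous cells, 2.79-fold lower in null cells (limma adjusted p 3.32e-05). Slx1b, a structure-specific nuclease, was dim, at 44.4, 37.2 and 46.3 in null cells and 108, 120 and 123 in heterozygous cells, a difference of -1.46. The relatives of Gadd45a split. Gadd45b read 1971, 1693 and 1580 in null cells and 852, 822 and 756 in heterozygous cells, a rise of 1.11, and Gadd45g read 135, 167 and 109 in null cells and 689, 593 and 450 in heterozygous cells, a difference of -2.08 (adjusted p 5.92e-06).

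Targets of p53, the transcription factor that Atm and Chek2 activate, changed in both directions. Of 15 tested, 4 passed as higher and 7 as lower, or 26.7% and 46.7%, against 24.5% and 24.3% of all tested genes. By 2-fold, 3 rose and 3 fell, or 40% against 13.4% of all tested genes. Rrm2b, a ribonucleotide reductase subunit that supplies nucleotides for repair, read 505, 538 and 640 in null cells and 212, 125 and 181 in heterozygous cells, 3.32-fold higher in null cells (limma adjusted p 1.8e-05). The cell cycle inhibitor Cdkn1a rose by 1.60 and the antiproliferative gene Btg2, on chromosome 1, by 1.01. The differences of Ddit4, an inhibitor of mTORC1, the death promoter Bbc3 and the kinase Plk2 were -1.58, -1.28 and -1.11. Replication and mitosis genes, with which many repair genes vary through the cell cycle, had a median of 0.04. Of 26 tested, 6 passed as higher and 6 as lower, or 23.1% each, and 0 met the 2-fold threshold in either direction.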

How the data were processed

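The deposited table holds intensities on a linear scale for 45101 probe sets on 6 Affymetrix arrays, judged from the values; per the submitters' processing notes the authors used GCRMA, in a step not given in the sources used here. The values are not on the log2 scale that GCRMA gives, and every array has the same mean after trimming 2% at each end, so arrays can still differ in how their values are spread. Detection calls were not used.

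Intensities were turned into log2. The 64 control probe sets were left out. In the platform annotation 34945 probe sets carried 1 gene symbol, 932 several and 9160 none. Kept were probe sets with an intensity of 32 or more (5 in log2) on 3 or more arrays, and each gene was read by its probe set with the highest mean. Genes were tested two-sided with limma 3.58.1 in R 4.3.3 (lmFit and eBayes with an intensity trend), with group as the only term and Benjamini-Hochberg adjustment over all 12927 genes. Further probe sets were adjusted over all 26545 probe sets past the filter. Means ± SD are of linear intensities, and folds come from means of log2. Precision is limited by the number of arrays.

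Repair genes and the lists were chosen with earlier results of these data known. Every listed gene is named whatever its value, and of the other repair genes and p53 targets up to 5 called in each direction. The alternatives were other filters, log scales, variance priors, normalizations, ways to combine probe sets, array weights, thresholds, a replicate block, leaving out each array and, added later, 2 settings on chromosomes. List symbols missing from the annotation were looked up through RefSeq synonyms.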

Additional observations from a re-analysis of the deposited data

How the results depend on the processing

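Of the 26 genes past the adjusted p, 16 stayed past it with the same sign in every one of 22 alternatives where they had a value. Among them were Atm, Chek2, Rad52, Xrcc3, Xrcc4, Xrcc5 and Fanca. Without probe sets that may share sequence, Fanca had no value, and Rad52 was read by its dimmer probe set, at -2.0. Of the 25 that did not pass, 18 passed in none of the alternatives. The count of repair genes called higher, 0, was 3 under median centring and 1 with means over probe sets (Xrcc4, 1.33). The count called lower, 2, was 1 with log2(value + 16), 1 with quantile normalization, 0 under median centring and 1 with arrays centred within each chromosome. It was 1 to 2 when 1 array was left out, being 1 without null replicate 2, null replicate 3 or heterozygous replicate 2. At the adjusted p alone, the count lower, 10, was 6 under median centring and the count higher, 16, was 20; it was 9 without chromosomes 1 and 11, which removes 9 of the genes. The median difference of the repair genes, 0.02, was 0.17 under median centring and -0.06 without those chromosomes. Among other repair genes the count called higher, 1, was 2 with a replicate block, 2 under median centring, 0 with means over probe sets and 1 to 2 with 1 array left out (2 without heterozygous replicate 2 or 3); the count called lower, 3, was 1 without probe sets that may share sequence, which leaves out the probe sets used for Gadd45g and Slx1b. P53 targets called lower numbered 3 to 5 with 1 array left out (5 without null replicate 2), and 1 replication gene was called lower with means over probe sets.

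Signs turned only for genes that did not pass in either fit. Centring on medians gave Ddb1 0.01, Mre11a 0.04, Fancd2 0.07, Fancc 0.07, Wrn 0.08, Nbn 0.10, Ung 0.11 and Prkdc 0.12. Centring within chromosomes gave Ercc5 -0.12, Bard1 -0.27, Ung 0.01 and Prkdc 0.05. Means over probe sets gave Msh3 -0.01, Polb -0.31, Pms2 -0.60, Ercc2 0.06, Ogg1 0.08 and Fancc 0.26, and Ogg1 was at 0.37 without probe sets that may share sequence. Array weights gave Msh3 -0.03 and Fancg -0.03, and quantile normalization Msh3 -0.01 and Fancg 0.00. With 1 array left out the ranges that cross 0 were -0.01 to 0.05 for Apex1, -0.23 to 0.00 for Fancc, -0.20 to 0.00 for Fancd2, -0.13 to 0.15 for Fancg, -0.22 to 0.16 for Msh3, -0.19 to 0.08 for Nbn, -0.01 to 0.15 for Pms2, -0.11 to 0.05 for Prkdc, -0.10 to 0.04 for Ung and -0.27 to 0.02 for Wrn. The causes were not tested.

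The labels do not say whether the replicate numbers shared by the lines pair the arrays. Deviations of same-numbered arrays correlated at 0.03, 0.03 and 0.08 across genes. Those of differently numbered arrays, at -0.05 to 0.01, were all lower. All these values are small, and a batch shared by replicate number was not tested. With the replicate number as a block, 17 repair genes passed as higher and 12 as lower, 0 and 2 were called, and 1746 of all genes were called, against 1736.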
